A study of Mus musculus with 8 samples.

Results

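Amino acid transporters are the membrane carriers that bring amino acids, and a few related small molecules such as taurine, betaine and creatine, into cells or move them between compartments. They are described here in cardiac fibroblasts from mice, kept in primary culture, which make the collagen of the heart. Members were taken by name: every gene whose symbol begins with Slc1a, Slc3a, Slc6a, Slc7a, Slc36a, Slc38a or Slc43a, with Slc7a11, the cystine carrier, left out. This gave 63 of the 22274 genes in the table. Of these, 37 had enough reads to be tested, among 13533 tested genes in all. Reads were counted per gene in 8 RNA-seq libraries. In 4 of them, labelled GFP, the fibroblasts had been transduced with an empty control adenovirus (Ad-EV). In the other 4, labelled OEIRF7, they had received an adenovirus for interferon regulatory factor 7 (IRF7), a transcription factor of the interferon response. The study's methods name an adenovirus, while its deposited design names an adeno-associated virus. The cells of both groups were then treated with TGF-β, the cytokine that turns fibroblasts into myofibroblasts, at 5 ng/ml for 24 h, so no untreated cells stand beside them. The labels do not give the strain or age of the animals, nor whether the 4 libraries of a group come from separate cultures, so p-values measure the spread between these libraries, which may be technical.

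Cells use these carriers in families that share a fold and a driving force. The SLC1 and SLC6 families couple uptake to sodium. The SLC7 light chains exchange amino acids and reach the cell surface bound to an SLC3 heavy chain, while the cationic SLC7 carriers work alone. SLC36 carriers use protons, SLC38 carriers move glutamine and other small neutral amino acids, and SLC43 carriers are facilitators of large neutral amino acids. In fibroblasts, proline, glycine and the glutamine that feeds them are needed in quantity for collagen synthesis.

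The gene targeted by the design, Irf7, went against the label. Mouse Irf7 had 2861, 3680, 2272 and 3291 counts in the GFP-labelled libraries and 385, 421, 380 and 404 counts in the OEIRF7-labelled ones, a log2 fold change of -2.96 (SE 0.12, adjusted p = 7.7e-11, edgeR). The study's reagent list names a human IRF7 adenovirus as well as a mouse one of another type, and whether reads from the virus could be counted under the mouse gene was not tested. Whether the labels of the groups were exchanged was not tested either, and an exchange would turn every direction given here. All directions below therefore run between libraries labelled OEIRF7 and libraries labelled GFP. Total counts ran from 24888589 to 27095611 in the GFP-labelled libraries and from 24454801 to 28658826 in the OEIRF7-labelled ones. The members together took 0.287 to 0.312% of each library. Summed fibroblast markers lay at 13500 to 14200 CPM (counts scaled to library size) in the GFP-labelled libraries and at 11900 to 12500 in the OEIRF7-labelled ones. Of these 10 markers, 6 were lower and 1 was higher at an adjusted p under 0.05 (edgeR). Over all tested genes, 29.9% were lower and 29.0% higher. Tcf21 went from a mean of 58.3 to 23.1 CPM, and Pdgfra, the marker that was higher, from 122 to 145 CPM. Macrophage markers summed to 267 to 317 CPM and 324 to 362 CPM. Of these 6 markers, 3 were higher and 0 lower, and Lyz2, the most counted, went from a mean of 202 to 235 CPM. Mural cell markers summed to 68.9 to 76.0 CPM and 79.0 to 98.8 CPM. Mural markers moved both ways, with 2 higher and 2 lower: Cspg4 went from a mean of 22.4 to 63.3 CPM and Notch3 from 41.4 to 13.6 CPM. Epicardial markers summed to 144 to 159 CPM in the GFP-labelled and 119 to 124 CPM in the OEIRF7-labelled libraries, again with 2 higher and 2 lower, as Upk3b went from 51.8 to 20.8 CPM and Krt19 from 4.75 to 18.5 CPM. Sums of endothelial markers (203 to 216 and 206 to 231 CPM) overlapped, but 3 of the 6 were higher and 1 was lower. Kdr went from a mean of 6.5 to 11.3 CPM and Cdh5 from 100 to 92.9 CPM. Sums of neural and Schwann cell markers (32.4 to 37.9 and 27.7 to 32.4 CPM) met. Cardiomyocyte markers summed to 9.80 to 13.5 and 7.70 to 9.73 CPM with 5 of 6 below 1 CPM. The part of these marker shifts in the results was not tested, and in bulk RNA fewer cells of a type and less RNA per cell cannot be told apart.

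RefSeq promoter windows (build GRCm38.p6, 250 bases before to 50 bases after a transcript start) were found for 45 of the 63 members. Shown first is the window of Slc6a12, the betaine and GABA carrier with the largest rise among members that passed the filter in both groups, at chr6:121342826-121343125 on the plus strand. Its capitals mark a match to the interferon-type motif GAAANNGAA, read on the opposite strand, 158 bases before the start. The windows of Slc1a2 and Slc1a6 follow because these carriers of the same substrate, glutamate, moved in opposite directions. They lie at chr2:102706188-102706487 and chr10:78780246-78780545, both on the plus strand. The Slc1a2 window is that of an internal transcript start, well inside the gene, which begins at 102658659, while the Slc1a6 window is at the start of its gene.

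Slc6a12: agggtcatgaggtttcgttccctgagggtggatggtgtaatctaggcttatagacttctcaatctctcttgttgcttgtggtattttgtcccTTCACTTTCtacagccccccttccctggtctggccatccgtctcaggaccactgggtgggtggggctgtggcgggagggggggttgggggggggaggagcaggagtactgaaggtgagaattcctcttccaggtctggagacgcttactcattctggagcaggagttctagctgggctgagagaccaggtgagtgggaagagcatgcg

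Slc1a2: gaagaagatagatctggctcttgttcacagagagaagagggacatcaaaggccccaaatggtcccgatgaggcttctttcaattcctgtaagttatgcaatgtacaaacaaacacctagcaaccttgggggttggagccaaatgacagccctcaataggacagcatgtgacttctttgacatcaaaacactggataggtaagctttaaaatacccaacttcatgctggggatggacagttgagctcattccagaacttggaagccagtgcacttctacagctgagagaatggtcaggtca

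Slc1a6: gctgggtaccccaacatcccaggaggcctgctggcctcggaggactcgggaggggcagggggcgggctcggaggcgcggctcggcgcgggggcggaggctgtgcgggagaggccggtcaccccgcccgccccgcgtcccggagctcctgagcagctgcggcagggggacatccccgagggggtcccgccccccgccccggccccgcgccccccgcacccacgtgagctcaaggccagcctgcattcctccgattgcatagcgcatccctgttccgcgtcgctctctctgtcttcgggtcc

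Neither motif searched was in the Slc1a2 or Slc1a6 window. The internal Slc1a2 window had 45.7% G and C with 1 CpG, and the Slc1a6 window had 75.7% with 32 CpGs. The median was 52.7% over all promoters and 57.0% over the members' promoters. The motifs were GAAANNGAA and TGATGNAA, the latter the amino acid response element bound by ATF4, each searched on both strands with matches kept where they overlapped. GAAANNGAA was in 8.6% of 32817 promoters and in 7.6% of the members' 66. TGATGNAA was in 4.0% of all and in 6.1% of the members' promoters. These were 5 member windows from 4 genes for GAAANNGAA and 4 windows from 3 genes for TGATGNAA. Windows of the same gene can overlap, so a single site of Slc6a12 and a single site of Slc7a7 entered these shares more than once. Among tested members, TGATGNAA occurred in the windows of Slc7a7 and Slc1a4, and GAAANNGAA in those of Slc6a12, Slc7a8, Slc38a4 and Slc38a9. A short stretch around a match is given for each of Slc7a7, Slc1a4 and Slc7a8 with the motif in capitals. These genes represent a rise, no call and a small rise in the results that follow. The stretches all lie on the minus strand and are written along the gene. That of Slc7a7 holds the match 141 bases before a start. Another match of Slc7a7, TGATGCAA, begins 1 base before the same start and is not printed.

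Slc7a7: cgcttgggctTGATGAAAggttcactgg

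Slc1a4: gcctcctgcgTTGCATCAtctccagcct

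Slc7a8: cgccgcagccGAAAGGGAAgcacattcgc

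A match is a description of letters, and binding at these places was not tested. Across the groups, a gene was called when its adjusted p was under 0.05 (edgeR's quasi-likelihood test, Benjamini-Hochberg adjustment over all tested genes). Of the 37 tested members, 16 were higher and 5 were lower in the libraries labelled OEIRF7. Over all tested genes 58.9% were called, 29.0% higher and 29.9% lower, so that the members' 56.8% called is near the background, while their split was 43.2% higher against 13.5% lower. The median log2 fold change was 0.09 over the members and 0 over all genes. Among the calls, 8 higher and 4 lower members passed a fold of 1.5, which is 32.4% of the members, where 18.9% of all tested genes did (9.26% higher and 9.64% lower). CPM did not overlap between groups for 19 members, where 53.8% of all tested genes did not. For these 19 the exact two-sided permutation test gave p = 0.029, the smallest that 4 libraries against 4 can give. The lack of overlap fixes this value in advance, so it adds nothing to it. Slc7a6os, also among the 37, is a reading frame beside Slc7a6 and no carrier, and without it the counts were 15 higher and 5 lower of 36. Slc6a19, which is among the 8 higher members past a fold of 1.5, and Slc38a3 reached the test only through their counts in the OEIRF7-labelled libraries. With at least 10 counts asked of every library, 15 members were called higher, 5 lower and 11 past a fold of 1.5.

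**Figure D1:**
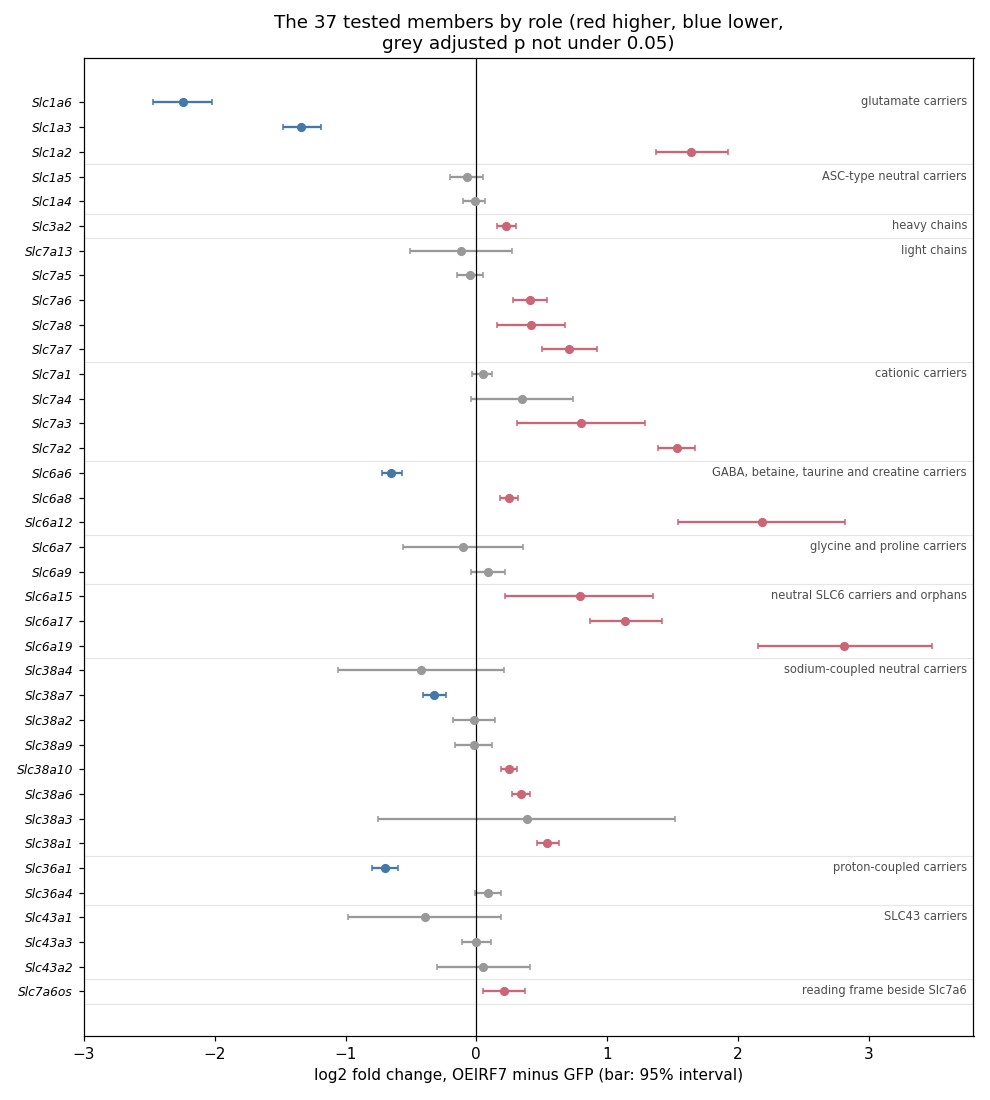
Log2 fold change (OEIRF7-labelled minus GFP-labelled libraries, x axis) of the 37 tested members, grouped by role, with 95% intervals as bars. Red points are the 16 higher, blue points the 5 lower and grey points the 16 members that were not called.

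**Figure D2:**
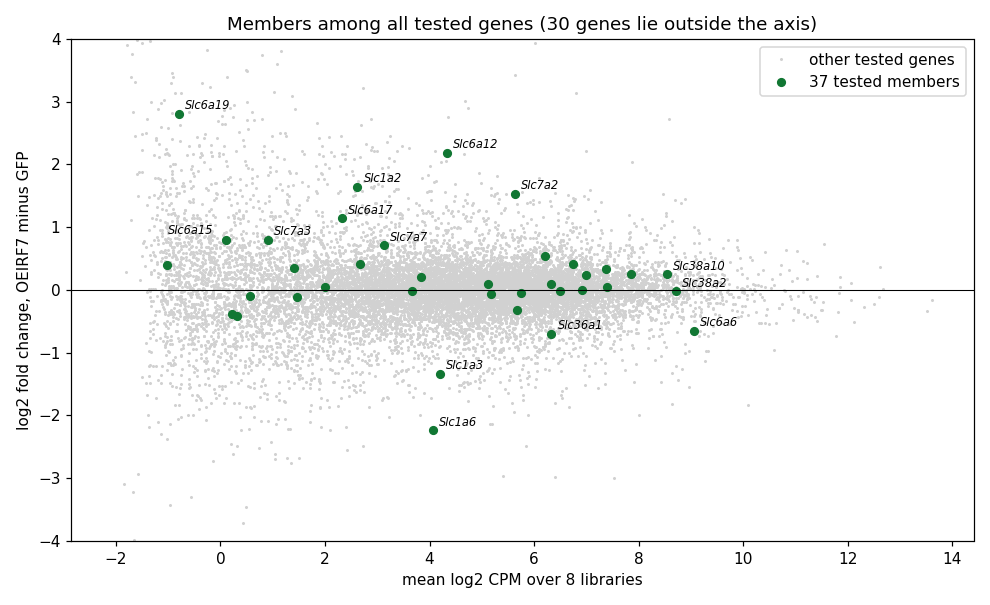
Log2 fold change (y axis) against mean log2 CPM over the 8 libraries (x axis) for all tested genes in grey and the 37 tested members in green. The axis leaves out 30 genes, Slc6a6 is the most counted member, and Slc6a19, the member with the highest fold change, is among the least counted.

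The glutamate carriers held both the largest falls of all members and a rise. These carriers take up glutamate and aspartate with sodium and are best known from astrocytes and neurons. Slc1a6, the carrier EAAT4 known from Purkinje cells, was at 36.5, 39.5, 34.9 and 35.0 CPM in the GFP-labelled libraries and at 8.06, 8.79, 5.46 and 8.39 CPM in the OEIRF7-labelled ones. Every OEIRF7-labelled library lay far below every GFP-labelled one, with a log2 fold change of -2.24 (SE 0.10, adjusted p = 2.4e-10). Slc1a3, the glial carrier GLAST, was at 29.5, 26.9, 30.3 and 28.6 CPM against 11.5, 10.2, 11.8 and 12.3 CPM. It fell by 60.3% in mean CPM, with tight groups that stood apart (log2 fold change -1.34, SE 0.069, adjusted p = 6.5e-10). Slc1a2, the main astrocyte carrier GLT1, moved the other way: it was at 2.84, 3.12, 4.46 and 3.39 CPM and at 10.1, 9.65, 11.9 and 11.5 CPM. Its log2 fold change was 1.64 (SE 0.13, adjusted p = 5.7e-08), and the lowest OEIRF7-labelled library was above the highest GFP-labelled one.

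Per length, in the FPKM values of the table, the 5 glutamate carriers summed to 25.8, 26.3, 25.5 and 24.7 in the GFP-labelled libraries and to 8.91, 8.91, 8.92 and 9.71 in the OEIRF7-labelled ones. The sum thus went from 25.6 ± 0.675 to 9.11 ± 0.398 FPKM (SD, n = 4), and its make-up changed with it. Slc1a6 made up 69.6% of the summed FPKM in the GFP-labelled libraries and 41.9% in the OEIRF7-labelled ones. The share of Slc1a2 went from 2.88% to 26.1%, and that of Slc1a3 from 27.4% to 30.8%. The remaining glutamate carriers were scarce: Slc1a7 had 5 counts in all, and Slc1a1, the neuronal and epithelial carrier EAAC1, had 6 counts over the GFP-labelled and 42 over the OEIRF7-labelled libraries.

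Neither neutral carrier of the SLC1 family was called. Slc1a4, which exchanges alanine, serine and cysteine, was the member of its family with the highest FPKM, at 23.34, 22.47, 22.40 and 22.95 in the GFP-labelled and 23.00, 21.86, 23.03 and 24.08 in the OEIRF7-labelled libraries. The groups overlapped, and its log2 fold change of -0.01 had a 95% interval from -0.10 to 0.07. Slc1a5, the glutamine exchanger ASCT2, went from 36.9 ± 2.48 to 35.0 ± 2.23 CPM (SD, n = 4; interval of the log2 fold change -0.20 to 0.05).

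The heavy chain Slc3a2, known as CD98 or 4F2hc, carries most light chains to the cell surface. It was at 65.76, 65.84, 66.87 and 62.27 FPKM in the GFP-labelled libraries and at 78.84, 76.39, 75.98 and 78.14 FPKM in the OEIRF7-labelled ones. The groups stood apart by little, with a log2 fold change of 0.23 (SE 0.033, adjusted p = 2.7e-05). The other heavy chain, Slc3a1 or rBAT, known from kidney and gut, had 75 counts over all 8 libraries and was not tested.

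Of the 5 tested light chains, 3 rose and 2 were not called. Slc7a6, the y+LAT2 exchanger of cationic for neutral amino acids, had the highest FPKM of the SLC7 family, at 33.92, 33.40, 31.09 and 28.58 against 40.13, 39.31, 52.91 and 39.99. All OEIRF7-labelled libraries were above the GFP-labelled ones, and library 3 was highest (log2 fold change 0.41, SE 0.059, adjusted p = 3.1e-05). Slc7a7, the related y+LAT1 and a carrier of macrophages and epithelia, was at 7.61, 6.05, 6.44 and 7.06 CPM and at 10.7, 11.6, 9.89 and 12.3 CPM, with no overlap (log2 fold change 0.71, SE 0.097, adjusted p = 1.8e-05). The summed macrophage markers given above were also higher, though 3 of the 6 were not called, and their part in this rise was not tested. Slc7a7 shares 7.0% of its exon bases with Oxa1l on the opposite strand. Slc7a8, the LAT2 exchanger of neutral amino acids, rose from 5.45 ± 0.592 to 7.30 ± 1.06 CPM (adjusted p = 0.0074), though the groups overlapped. Slc7a5, the LAT1 exchanger that brings leucine into growing cells, was at 54.4 ± 2.67 and 52.6 ± 2.82 CPM, with a 95% interval of its log2 fold change from -0.15 to 0.05. Slc7a13, a light chain of the kidney, was at 2.84 ± 0.610 and 2.61 ± 0.349 CPM and was not called.

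The summed FPKM of all light chains was 53.3 ± 3.16 in the GFP-labelled libraries and 67.5 ± 5.68 in the OEIRF7-labelled ones. Slc7a6 supplied 59.5% and 63.6% of it, and Slc7a5 28.7% and 22.5%. Set against their heavy chain, the summed FPKM of the 5 partners of Slc3a2 came to 0.750 to 0.846 of that of Slc3a2 in the GFP-labelled libraries and to 0.792 to 0.976 in the OEIRF7-labelled ones, so that these ranges overlapped.

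Among the cationic carriers, which bring in arginine, lysine and ornithine, Slc7a2 rose and Slc7a1 did not. Slc7a2, the CAT2 carrier that is known to be inducible and to feed arginine to nitric oxide synthase and arginase, was at 28.0, 31.2, 27.3 and 30.5 CPM and at 85.6, 94.2, 83.6 and 75.3 CPM. The groups lay far apart, and the log2 fold change was 1.53 (SE 0.066, adjusted p = 1.1e-10). Slc7a2 shares 7.0% of its exon bases with Gm26584, a noncoding gene on the opposite strand. Slc7a1, the constitutive carrier CAT1, was at 165 ± 3.15 and 170 ± 6.13 CPM (SD, n = 4), with an interval of its log2 fold change from -0.03 to 0.12. Slc7a3, the brain carrier CAT3, was at 1.68, 1.44, 1.09 and 1.30 CPM and at 3.10, 1.55, 2.43 and 2.55 CPM. OEIRF7-labelled library 2 fell among the GFP-labelled ones, and the call (log2 fold change 0.80, SE 0.23, adjusted p = 0.0078) stood beside an exact permutation p of 0.057. Slc7a4, a relative without a settled substrate, was at 2.29 ± 0.418 and 2.94 ± 0.497 CPM and was not called, and it shares 13.3% of its exon bases with P2rx6 on the opposite strand.

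The cationic carriers together went from 29.5 ± 1.19 to 41.8 ± 1.40 FPKM. Slc7a1 made up 78.1% of this in the GFP-labelled libraries and 57.4% in the OEIRF7-labelled ones, while Slc7a2 went from 15.8% to 36.4%.

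**Figure D3:**
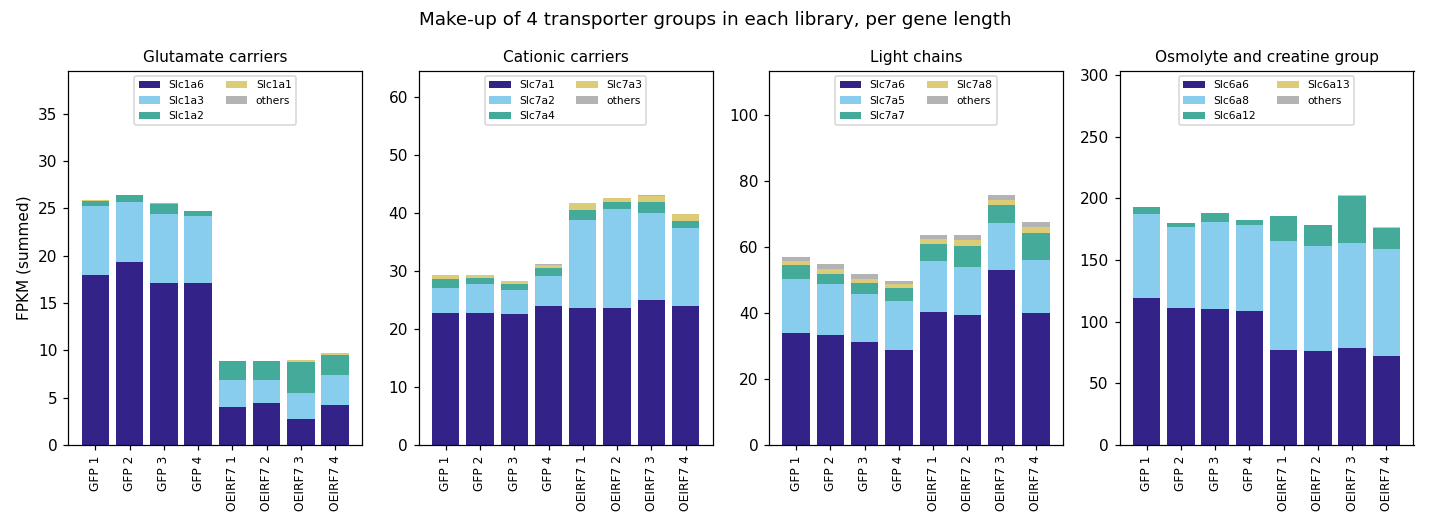
Summed FPKM (y axis, from 0) of 4 roles in each of the 8 libraries (x axis), with the members stacked by colour. The glutamate carriers drop from 25.6 to 9.11 FPKM on average, the cationic carriers gain through Slc7a2, the light chains gain through Slc7a6, and the osmolyte and creatine group keeps its sum while Slc6a6 gives way to Slc6a8 and Slc6a12.

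The SLC6 carriers of osmolytes and creatine moved in both directions. Slc6a6, the taurine carrier TauT, was the most abundant member of its family per length in the GFP-labelled libraries and second to Slc6a8 (86.4 against 76.0 FPKM) in the OEIRF7-labelled ones. It was at 696, 657, 650 and 648 CPM in the GFP-labelled and 424, 418, 440 and 412 CPM in the OEIRF7-labelled libraries. It fell by 36.1% with no overlap (log2 fold change -0.65, SE 0.033, adjusted p = 6.3e-10), and in FPKM it went from 118.97, 111.25, 110.52 and 108.86 to 76.84, 76.25, 78.71 and 72.00. Slc6a12, the carrier BGT1 that takes up betaine and GABA and is known from kidney cells under osmotic load, was at 10.7, 5.89, 16.1 and 7.70 CPM and at 39.3, 32.5, 77.5 and 33.3 CPM. The groups did not overlap, yet both were wide, and library 3 was the highest of its group in each. The log2 fold change was 2.18 (SE 0.30, adjusted p = 1.8e-05), and it lay between 1.80 and 2.49 when any 1 library was left out. Slc6a8, the creatine carrier, rose slightly from 211 ± 6.39 to 252 ± 4.21 CPM (log2 fold change 0.25, SE 0.033, adjusted p = 1e-05).

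Because the fall and the rises offset each other, the summed FPKM of this group was 186 ± 5.58 in the GFP-labelled and 185 ± 11.8 in the OEIRF7-labelled libraries. Slc6a6 went from 60.5% to 41.0% of it, Slc6a8 from 36.8% to 46.7% and Slc6a12 from 2.65% to 12.2%. Slc6a11 and Slc6a13, which carry GABA, had 10 and 14 counts over all libraries. Slc6a13 lies next to Slc6a12 on chromosome 6 (121300227 to 121337733 and 121343076 to 121365775, GRCm38, both on the plus strand), and of the pair only Slc6a12 had enough reads to be tested.

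Neither tested SLC6 carrier of glycine or proline, residues that make up much of collagen, was called. Slc6a9, the glycine carrier GlyT1, was at 33.7 ± 3.08 and 35.8 ± 1.02 CPM (interval of the log2 fold change -0.04 to 0.22), with 27.8% of its exon bases shared with Ccdc24 on the opposite strand. Slc6a7, the proline carrier of brain, was at 1.48 ± 0.247 and 1.38 ± 0.239 CPM.

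The remaining SLC6 group moves neutral amino acids in brain, kidney and gut, and 6 of its 9 members were not tested. The 3 tested ones were higher in the OEIRF7-labelled libraries, each from a low level. Of these, Slc6a19 reached the test only through the OEIRF7-labelled libraries, where it was high. Slc6a17, a synaptic vesicle carrier of neutral amino acids, was at 3.32, 2.92, 3.93 and 3.20 CPM and at 6.90, 6.51, 8.83 and 7.34 CPM, with no overlap (log2 fold change 1.14, SE 0.13, adjusted p = 2.7e-06). Slc6a15, a brain carrier of branched-chain amino acids and proline, was at 0.896, 0.481, 0.729 and 0.992 CPM and at 1.43, 1.62, 1.30 and 1.01 CPM. Its groups met almost without a gap, and its call (log2 fold change 0.79, SE 0.26, adjusted p = 0.019) was lost without GFP-labelled library 2 (0.62, adjusted p = 0.058) or OEIRF7-labelled library 2 (0.68, adjusted p = 0.062). Slc6a19, the B0AT1 carrier of kidney and gut, had 5, 3, 5 and 5 counts in the GFP-labelled and 32, 46, 28 and 27 counts in the OEIRF7-labelled libraries. In CPM this was 0.187, 0.120, 0.203 and 0.191 against 1.24, 1.59, 1.10 and 1.09. The ratio of the pooled counts per library total was 7.23, with an exact 95% interval for counting error from 4.40 to 12.6 (log2 fold change 2.81, SE 0.31, adjusted p = 2.1e-06).

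**Figure D4:**
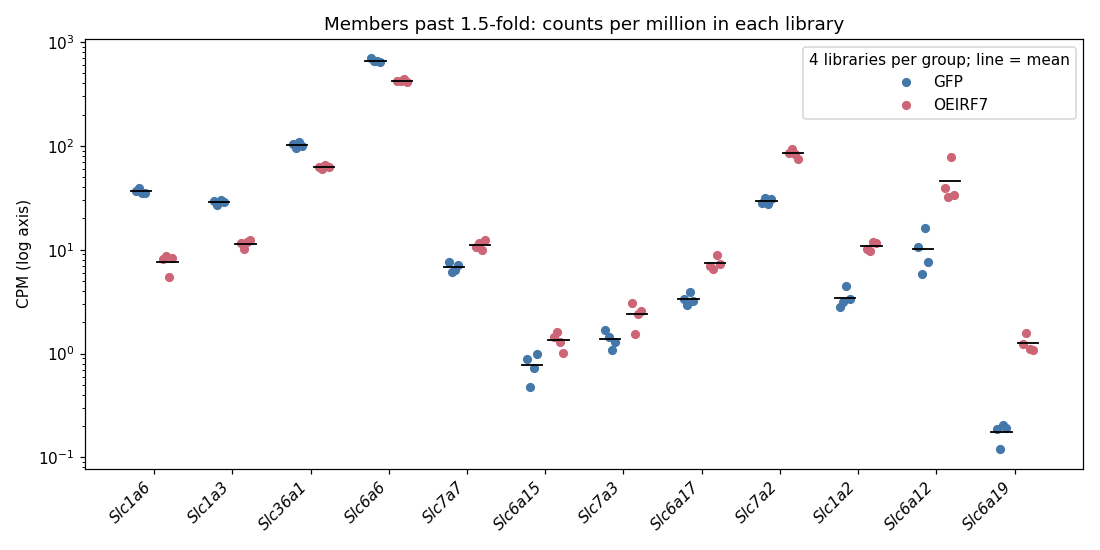
CPM (y axis, logarithmic) in each of the 4 GFP-labelled (blue) and 4 OEIRF7-labelled (red) libraries for the 12 members past a fold of 1.5, ordered by log2 fold change, with a line at each group's mean. Slc1a6, Slc1a3, Slc36a1 and Slc6a6 are lower and the other 8 higher, and Slc7a3 is the member of the 12 whose groups overlap.

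In the GFP-labelled libraries the proton-coupled carriers were led by Slc36a1, the PAT1 carrier that lets glycine, proline and alanine out of lysosomes and into cells. It was at 105, 95.8, 110 and 99.2 CPM in the GFP-labelled and at 63.0, 60.2, 66.2 and 63.1 CPM in the OEIRF7-labelled libraries. It fell by 38.4% with no overlap (log2 fold change -0.70, SE 0.047, adjusted p = 1e-08), and its FPKM went from 20.90, 18.72, 21.39 and 19.30 to 13.29, 12.23, 13.80 and 13.48. Slc36a4 was at 77.5 ± 2.76 and 82.4 ± 5.67 CPM and was not called. Its mean FPKM was below that of Slc36a1 in the GFP-labelled libraries (12.9 against 20.1). In the OEIRF7-labelled ones it was above (14.2 against 13.2). Slc36a2 and Slc36a3, which lie in a row before Slc36a1 on chromosome 11, had 12 counts and 1 count.

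Of the 8 tested SLC38 carriers, 3 rose, 1 fell and none passed a fold of 1.5. Slc38a2, the SNAT2 carrier that is induced when amino acids are short, had the highest mean FPKM of the family in the GFP-labelled libraries. It was at 95.24, 80.13, 97.71 and 87.67 against 89.76, 84.25, 106.30 and 82.78. The groups overlapped throughout, and its log2 fold change of -0.02 had an interval from -0.18 to 0.14. Its neighbour on chromosome 15, Slc38a1 or SNAT1, a carrier of glutamine, rose from 61.3 ± 2.21 to 89.2 ± 3.0 CPM (log2 fold change 0.54, 95% interval 0.46 to 0.63), and this interval lay above that of Slc38a2. Slc38a10 was at 81.43, 81.56, 82.76 and 80.35 FPKM and at 99.78, 98.38, 97.35 and 99.78 FPKM. It had the highest mean FPKM of the family in the OEIRF7-labelled libraries. Single libraries departed from this order: Slc38a2 was below Slc38a10 in GFP-labelled library 2 and above it in OEIRF7-labelled library 3. The rise of Slc38a10 was small and its groups were tight (log2 fold change 0.25, SE 0.028). Slc38a6 rose from 147 ± 3.91 to 186 ± 1.45 CPM, a log2 fold change of 0.34 (SE 0.032). Slc38a7, known as a glutamine exporter of lysosomes, fell from 57.1 ± 1.70 to 45.8 ± 1.28 CPM, a log2 fold change of -0.32 (SE 0.040). Slc38a9, the lysosomal arginine sensor of mTORC1, was at 12.6 ± 0.222 and 12.5 ± 0.513 CPM and was not called, and neither were Slc38a3 and Slc38a4, both under 2 CPM in every library. The whole family summed to 242 ± 9.22 and 272 ± 10.8 FPKM.

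No SLC43 member was called. Slc43a3, known to carry purine bases rather than amino acids, had the highest FPKM of the family, at 64.27, 59.25, 51.69 and 56.82 and at 58.22, 55.54, 65.69 and 59.02. Its groups overlapped, and the log2 fold change was 0.00 with an interval from -0.11 to 0.11. The leucine facilitators Slc43a1 and Slc43a2 were at 1.28 ± 0.387 and 0.971 ± 0.227 CPM and at 3.86 ± 0.867 and 4.01 ± 0.506 CPM.

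Of the 26 members below the filter, 22 had at most 25 counts over all 8 libraries. Slc6a5, Slc6a14 and Slc7a9 had no count, which allows up to 0.105 to 0.123 CPM in a library. The 3 monoamine carriers of the SLC6 family, for noradrenaline, dopamine and serotonin, were all among the 26. When every counted gene entered the fit, 8108 of 18458 genes were called. Of the 26 members, 3 were called higher and 0 lower in that fit, to be read against this background. Slc1a1 had the 6 and 42 counts given above, a ratio of 6.85 with an exact 95% interval from 2.90 to 19.7 (adjusted p = 0.0091). The groups of Slc1a1 overlapped, with 0.149 CPM in GFP-labelled library 1 and 0.103 CPM in OEIRF7-labelled library 2. Slc6a18, the kidney relative that adjoins Slc6a19 on chromosome 13, had 1 and 20 counts (ratio 19.6, interval 3.13 to 811, adjusted p = 0.0053). Slc6a20a, an imino acid carrier of kidney and gut, had 2 and 17 counts (ratio 8.32, interval 1.97 to 74.2, adjusted p = 0.028). These intervals cover counting error only, and 31.9% of the exon bases of Slc1a1 are shared with a gene on the opposite strand. Slc6a20a likewise shares 13.8% of its exon bases with Gm17120, an antisense gene.

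Other genes of amino acid supply are given by list, each with members in both directions. Over all tested genes, 58.9% were called, 29.0% higher and 29.9% lower, and each list's count is to be read against these shares. Of 30 genes of the amino acid response, the programme run by ATF4 when amino acids are scarce, 12 were higher and 6 lower (60.0% called), with a median log2 fold change of 0.08. Atf4 itself was not called (0.06, SE 0.041, adjusted p = 0.20). Cebpb, an ATF4 partner that also belongs to inflammation, had the largest rise, from 10.9 ± 0.692 to 24.7 ± 0.389 CPM (log2 fold change 1.17), and Stc2, a secreted stress protein, the largest fall, from 59.3 ± 5.10 to 27.8 ± 5.23 CPM (-1.10). Of 20 cytosolic aminoacyl-tRNA synthetases, which load tRNAs with amino acids, 7 were higher and 3 lower (10 called, median 0.03), from Rars at 0.38 to Vars at -0.26. Of 34 genes of amino acid sensing and mTORC1, 6 were higher and 10 lower (47.1% called, median -0.06). Mtor was at 66.5 ± 1.09 and 67.9 ± 2.0 CPM and was not called, while Castor1, an arginine sensor, fell from 36.8 ± 1.28 to 19.2 ± 2.05 CPM (-0.93). The low-count Rragb had the largest fall of this list (-1.04, SE 0.30), but it reached the test only through the GFP-labelled libraries, where it was high. The largest rise was that of Seh1l (0.38).

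Of 17 tested amino acid carriers of other families, 8 were higher and 5 lower (76.5% called, median 0.06). Slc17a7, a vesicular glutamate carrier, rose most (1.90, SE 0.47), from 0.242 ± 0.0823 to 0.935 ± 0.621 CPM with library 4 highest, and it reached the test only through its counts in the OEIRF7-labelled libraries, where it was high. Slc25a29, a mitochondrial carrier of basic amino acids, fell most (-1.13, SE 0.21). Of 15 tested glutamine and glutamate enzymes, 6 were higher and 6 lower (80.0% called, median -0.07). Gfpt2, which uses glutamine to make hexosamine, rose from 276 ± 8.73 to 720 ± 51.4 CPM (1.38, SE 0.046), and Gpt2, the mitochondrial alanine transaminase, fell from 22.5 ± 1.83 to 13.2 ± 0.672 CPM (-0.78). Of 17 branched-chain amino acid enzymes, 3 were higher and 7 lower (58.8% called, median -0.11). Bcat1, the cytosolic transaminase that opens this pathway, rose from 45.9 ± 2.93 to 94.3 ± 10.3 CPM (1.04), and Aldh6a1 and Mccc2, mitochondrial enzymes further down, both had -0.68.

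Of 19 tested arginine and polyamine enzymes, whose substrate the cationic carriers bring in, 8 were higher and 5 lower (68.4% called, median 0.08). Nos2, the inducible nitric oxide synthase, had the largest rise (2.12, SE 0.41) from a mean of 0.177 to 0.783 CPM, so it stayed under 2 CPM in every library. Nos2 and the arginases Arg1 and Arg2, which are 3 of these 8, reached the test only through their counts in the OEIRF7-labelled libraries, where they were high. Gamt, the last enzyme of creatine synthesis, had the largest fall, from 2.28 ± 0.185 to 0.646 ± 0.194 CPM (-1.81, SE 0.23), and it moved opposite to the creatine carrier Slc6a8. Gatm, an enzyme of the same synthesis, did not: it was at 4.99 ± 0.266 and 5.94 ± 0.564 CPM and was not called (0.25, SE 0.11).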

How the data were processed

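RNA was sequenced from 8 libraries, 4 per group by the labels. The authors trimmed the reads with Trimmomatic, mapped them with HISAT2 to GRCm38, and deposited the read counts that HTSeq-count gave for each gene, unscaled, together with FPKM from Cufflinks, which are scaled for depth and gene length. Tool versions and the strand setting of the counting are not given in the sources used here, so reads of genes that overlap on opposite strands cannot be told apart. The labels and the study's methods differ on the extraction and library kits. Columns with the authors' group means, fold changes, p-values and FDR were not used.

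For the tests on counts, edgeR 4.0.16 was run under R 4.3.3. Its filterByExpr, given the groups, chose the genes, TMM scaled the libraries (factors 0.989 to 1.01), and glmQLFit with glmQLFTest compared OEIRF7 with GFP, with no covariate and Benjamini-Hochberg adjustment over the 13533 tested genes. CPM were taken on the TMM-scaled totals, and log2 CPM used a prior count of 2. FPKM served only to set levels of different genes side by side and, with limma 3.58.1, as an alternative. DESeq2 1.42.0 was another. The exact permutation test was two-sided, on single genes. Gene symbols that the table had damaged (121) were restored by Ensembl identifier, which touched no member. Coordinates are those of GRCm38 (GENCODE M21) and promoters those of RefSeq. The fit was tested on simulated counts with known changes.

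Members, their roles and all other lists were chosen with earlier results of these data known. Values in every library were given for members called past a fold of 1.5 and for the member with the highest mean FPKM of each family. Genes of other lists were named for the largest change in either direction or as a regulator of the list. At 24454801 to 28658826 counts per library, members under about 1 CPM rest on few reads.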

Additional observations from a re-analysis of the deposited data

Results flagged for a closer look

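In each group of 4 libraries, the highest or lowest value of a tested member was set against the other 3 by Dixon's ratio. Of 74 groups 4 stood out, where chance gives about 1 in 20. Slc6a12 in OEIRF7-labelled library 3 was at 77.5 CPM, with the others at 32.5 to 39.3 CPM. Slc6a7 in the same library was at 1.02 CPM, below 1.46 to 1.52 CPM in the others. Slc43a2 was at 3.26 CPM there, below 4.19 to 4.34 CPM. Slc3a2 in GFP-labelled library 4 was at 113 CPM, where the others had 118 to 119 CPM.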

How the results depend on the processing

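Over 17 alternatives, 586 of 627 member values kept their direction and their side of the threshold, and 0 of the called members changed direction. The count of members past a fold of 1.5, 12 in the report, was 6 with limma on log2(FPKM + 1), a scale that shrinks changes of low genes, and 7 when a fold of 2 was asked for. The count of lower carriers of other families, 5 in the report, was 2 with limma at either pseudocount and 3 without GFP-labelled library 1. Members called higher numbered 15 to 17 and lower 5 to 6 when any 1 library was left out. Calls were lost for Slc6a15, as given in the report, and for Slc7a6os without GFP-labelled library 1 (0.16, adjusted p = 0.081) or OEIRF7-labelled library 3 (0.18, adjusted p = 0.070). Calls were gained for Slc7a4 without GFP-labelled library 4 (0.48, adjusted p = 0.046), for Slc36a4 with library size alone (0.12, adjusted p = 0.047) or without OEIRF7-labelled library 4 (0.12, adjusted p = 0.046), and for Slc38a4 without OEIRF7-labelled library 3 (-0.73, adjusted p = 0.046). The cause was not tested.

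The sign changed for 8 members, none of which was called in the report. With library size alone the log2 fold change was 0.01 for Slc1a4, 0.03 for Slc43a3, 0.01 for Slc38a2 and 0.01 for Slc38a9. With limma it was 0.01 for Slc1a4, -0.16 and -0.25 for Slc43a2, 0.04 for Slc43a3, 0.01 for Slc38a2, and 0.14 and 0.20 for Slc38a9. Slc43a3 was at 0.00 with DESeq2, with relative log expression scaling and with the replicate block, and at 0.01 with at least 10 counts in every library. Leaving out 1 library gave ranges of -0.04 to 0.01 for Slc1a4, -0.17 to 0.02 for Slc6a7, -0.23 to 0.00 for Slc7a13, -0.09 to 0.16 for Slc43a2, -0.04 to 0.04 for Slc43a3, -0.11 to 0.02 for Slc38a2, -0.04 to 0.77 for Slc38a3 and -0.04 to 0.01 for Slc38a9.

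Libraries with the same number share only that number by the labels. Deviations from the group means correlated at 0.08 to 0.14 between libraries of the same number and at -0.16 to 0.05 otherwise, and all 8 libraries correlated best with their own number, which is a hint from the data and not from the design. With a replicate block, 8211 of all genes were called in place of 7969, and the members called stayed at 16 higher and 5 lower, with 12 past a fold of 1.5. Depth limits the members under about 1 CPM.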

Other observations

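Slc7a11, the cystine and glutamate exchanger that was left out of the members and that also pairs with Slc3a2, had 15.6 ± 0.720 CPM in the GFP-labelled and 41.8 ± 2.48 CPM in the OEIRF7-labelled libraries (SD, n = 4), a log2 fold change of 1.43 (SE 0.059, adjusted p = 7.8e-11, edgeR). With it, the partners of Slc3a2 summed to 0.774 to 0.872 of the FPKM of Slc3a2 in the GFP-labelled and to 0.851 to 1.03 in the OEIRF7-labelled libraries.

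Library 3 was the highest of its group for Slc6a12 in both groups. A few other genes known from the response to osmotic load were looked at for this reason, after the values of Slc6a12 had been seen. Akr1b3, aldose reductase, which makes sorbitol, was at 327, 267, 395 and 283 CPM in the GFP-labelled and at 504, 398, 975 and 420 CPM in the OEIRF7-labelled libraries. Hspa4l, a chaperone of the HSP110 family, was at 268, 203, 312 and 223 CPM and at 479, 407, 713 and 385 CPM. Slc5a3, the myo-inositol carrier, was at 279, 212, 321 and 255 CPM and at 285, 251, 332 and 262 CPM, so that its groups overlapped. In these 3 genes, as in Slc6a12, libraries 3 and 1 were the highest and the next highest of each group. Between the groups, the log2 fold change was 0.85 for Akr1b3 (adjusted p = 0.0043), 0.98 for Hspa4l (adjusted p = 0.00014) and 0.08 for Slc5a3 (adjusted p = 0.51). Nfat5, the transcription factor of this response, had a log2 fold change of -0.21, at 712, 654, 693 and 698 CPM and at 601, 597, 635 and 555 CPM.

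Members that are neighbours in the genome, within 200 kb, formed 9 groups with 20 members. In 3 of these groups 2 members were tested, with log2 fold changes of 0.54 for Slc38a1 beside -0.02 for Slc38a2, 0.41 for Slc7a6 beside 0.21 for Slc7a6os, and -0.39 for Slc43a1 beside 0.00 for Slc43a3.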
